A study of Musca domestica with 24 samples.

Results

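The 80 genes described here were the first-ranked of 804 house fly genes with opposite temperature differences in testes. Their mean testis level was higher in warm-raised than in cool-raised CSrab flies and lower in warm-raised than in cool-raised IsoCS flies. The flies were Musca domestica of the strains CSrab and IsoCS, which the series describes as isogenic except for the proto-Y chromosome. Both were raised at a developmental temperature of 29 °C or 18 °C, and polyA RNA of heads and of testes was sequenced. The 8 groups were testes of CSrab at 29 °C and 18 °C, testes of IsoCS at 29 °C and 18 °C, and heads of the same 4 kinds, with 3 libraries each. The labels give neither the proto-Y of a strain nor how many flies went into a library, and they do not say whether the head and the testis library of one replicate number came from the same flies.

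A proto-Y is a young Y chromosome, a former autosome that has gained the male-determining gene of the house fly. Several such chromosomes segregate in natural populations of the species, and their frequencies follow latitude and temperature. In flies the testis holds the male germ line, from stem cells through meiosis to elongating sperm, in a sheath of somatic cells, while the head holds the brain, the eyes, muscle and fat tissue. The pace of sperm development depends on rearing temperature. In whole tissues, fewer cells of a type and less RNA per cell cannot be told apart.

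The members were chosen by their testis values. Of 16540 genes listed, 9526 carried a LOC identifier and lay on chromosome elements B to E, the elements being the chromosome arms that fly genomes share. A mean of at least 5 CPM (the count relative to the total count of its library, scaled per mega-count) over the 12 testis libraries left 6619 genes, called the eligible genes below. For each strain, the log2 ratio of the mean CPM at 29 °C to that at 18 °C was taken after adding 0.5 CPM to both. It was positive in CSrab and negative in IsoCS for 804 genes, and the 80 with the largest smaller absolute ratio were kept. All 80 passed the filters on low counts in both tissues. The last genes inside the limit were LOC101893017, LOC101896552 and LOC101901394, each with a smaller absolute ratio of 0.51. The first outside were LOC101889671 at 0.50, LOC101898681 at 0.49 and LOC101892267 at 0.49. Over the members the CSrab ratio ran between 0.51 and 5.12 with a median of 1.00, and the IsoCS ratio between -4.03 and -0.51 with a median of -1.12. These ratios selected the genes and are given as a description only.

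The members were spread over all 4 elements allowed by the rule. Element B held 22 of them, C 21, D 14 and E 23. As shares these are 27.5%, 26.3%, 17.5% and 28.8% of the members, beside 20.7%, 26.1%, 22.5% and 30.7% of the eligible genes. The members lay on 68 of the scaffolds named in the deposited tables, and 8 scaffolds held more than 1 member, 20 members in all. LOC101887891, LOC101887216 and LOC101901680 shared a scaffold of element B with 7 eligible genes, and LOC101900960, LOC101901138 and LOC101900844 shared one of element C with 10. Another scaffold of element C, with 5 eligible genes, held LOC101889681, LOC101889169 and LOC101889346. A scaffold of element E with 4 eligible genes held LOC101897255, LOC101896730 and LOC101896552. The reference gene table lists 78 of the 80, of which 77 are protein coding and 1 is a long non-coding RNA. It gives no product names, so the members are known here by their identifiers alone, and no role is stated for any of them.

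Total counts ran between 14.9 and 40.0 M (mega-counts) in testis libraries and between 15.7 and 35.7 M in head libraries. Among the testis libraries some stood apart. Replicate 1 of IsoCS at 29 °C had the largest total, 40.0 M, and the gene yp3 at 82.7 CPM, against at most 24.5 CPM in any other testis library. Replicate 3 of CSrab testes at 29 °C had a TMM factor (edgeR's scaling of library size) of 0.747, the lowest of the 12 testis libraries. Replicate 2 of IsoCS testes at 29 °C had the next lowest, 0.801. It had the immune genes attacin, defensin-1 and diptericin at 103, 103 and 196 CPM, against at most 26.6, 8.82 and 10.2 CPM in any other testis library. Another immune gene, lysozyme, was at 0.200 CPM there, the lowest of the 12 testis libraries. The rule still chose 69 of the 80 genes without this library. It chose 60 without replicate 3 of CSrab at 29 °C and 60 without replicate 1 of IsoCS at 29 °C. The summed level of 337 genes that were far higher in heads than in testes, members left out, was taken as a check of dissection. In testes it was 865, 743 and 417 CPM in replicates 1, 2 and 3 of CSrab at 29 °C, and 1325, 758 and 557 CPM at 18 °C. In IsoCS it was 2285, 967 and 609 CPM at 29 °C and 1892, 1617 and 1049 CPM at 18 °C. Replicate 1 was the highest and replicate 3 the lowest in all 4 groups. The members' median levels were in the same order of replicates. By replicate number the list was lower at 29 °C than at 18 °C in all 3 of CSrab and in numbers 2 and 3 of IsoCS, and higher in number 1 of IsoCS. Its part in the results was not tested.

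The members' typical level was highest in cool-raised IsoCS testes and lowest in cool-raised CSrab testes. The median over members of the group mean was 25.2 CPM in warm-raised CSrab testes and 10.4 CPM in cool-raised ones, against 17.6 CPM in IsoCS at 29 °C and 42.7 CPM at 18 °C. Over the eligible genes the same medians were 32.6, 37.9, 32.5 and 41.1 CPM. IsoCS at 18 °C was the group with the highest mean for 67 members, and CSrab at 29 °C for the other 13. CSrab at 18 °C had the lowest mean for 65 members and IsoCS at 29 °C for 15. At 29 °C the mean of CSrab was above that of IsoCS for 60 members, while at 18 °C it was below for 78, and 58 members did both. The order of strains thus turned round with temperature for most members, which the choice of opposite ratios favours.

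**Figure D1:**
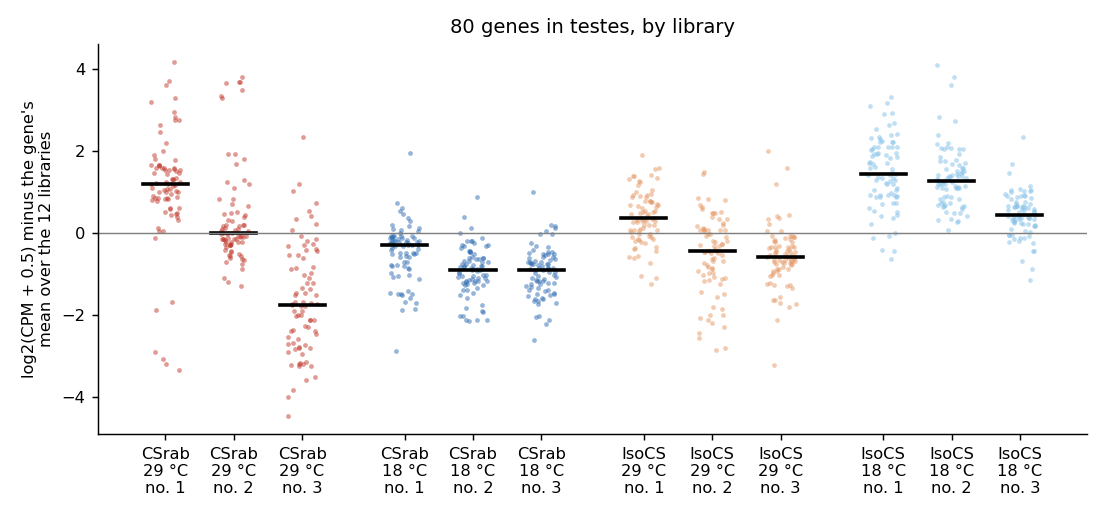
Level of the 80 genes in each testis library, as log2 of CPM plus 0.5 relative to the gene's mean over the 12 testis libraries (vertical axis), with libraries grouped by strain and temperature (horizontal axis). Each point is a gene, coloured by group, and black bars are medians; replicate 1 of CSrab at 29 °C sits far above and replicate 3 far below replicate 2.

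The 3 libraries of a group were far from equal for these genes. In CSrab testes at 29 °C the median member level was 41.9, 23.4 and 5.99 CPM in replicates 1, 2 and 3, and at 18 °C it was 12.8, 9.32 and 8.89 CPM. In IsoCS testes it was 21.6, 16.2 and 13.6 CPM at 29 °C, and 57.1, 49.6 and 25.9 CPM at 18 °C. Replicate 1 was thus the highest and replicate 3 the lowest in each group, and replicate 3 of CSrab at 29 °C lay below every CSrab library from 18 °C. Replicate 1 held the highest value of its group for 68 members in CSrab at 29 °C and 58 at 18 °C. In IsoCS it did for 59 at 29 °C and 58 at 18 °C. It was also the highest for 23.0%, 58.9%, 15.5% and 28.1% of the eligible genes in these groups, in that order. Replicate 3 held the lowest for 69 members in CSrab at 29 °C and for 70 in IsoCS at 18 °C. In CSrab at 29 °C the members' median log2 deviation from the group mean was 1.46, 0.20 and -1.59 in replicates 1, 2 and 3, while that of the eligible genes was 0.05, 0.21 and -0.27. The plot of testis libraries shows the same spread.

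Set side by side by replicate number, the warm-raised CSrab library was above the cool-raised one for 73 members in number 1, 76 in number 2 and 23 in number 3. In IsoCS the warm-raised library was above for 6, 1 and 6 members. The median log2 ratio by number was 1.51, 0.96 and -0.62 for the members in CSrab, beside -0.29, -0.10 and -0.37 for the eligible genes. In IsoCS it was -0.92, -1.60 and -0.98 for the members, beside -0.37, -0.56 and -0.12 for the eligible genes. Every CSrab library from 29 °C was above every one from 18 °C for 6 members, where 4.15% of the eligible genes showed this. Every IsoCS library from 29 °C was below every one from 18 °C for 36 members, where 27.4% of the eligible genes did. Both held for 1 member, LOC101896113, and for 0.0453% of the eligible genes. These counts and medians come from the contrasts that chose the members, and nothing is read from them.

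Membership depended on single libraries. Without replicate 1 of CSrab testes at 29 °C, 42 of the 80 genes were still chosen, 52 kept a positive CSrab ratio, and the median CSrab ratio was 0.31, against 1.00 with all libraries. Without any other single testis library, 60 to 76 genes were still chosen. With TMM-scaled library sizes the rule still chose 56, and with a mean of log2 values 57.

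The member with the largest smaller ratio was LOC101889983, on element E. Its testis level was 0.103, 70.3 and 12.1 CPM in replicates 1, 2 and 3 of CSrab at 29 °C, and 2.11, 2.61 and 5.66 CPM at 18 °C. In IsoCS testes it was 3.55, 0.520 and 1.08 CPM at 29 °C and 3.64, 92.9 and 10.4 CPM at 18 °C. Replicate 2 of warm-raised CSrab and replicate 2 of cool-raised IsoCS stood far above the other libraries. The temperatures overlapped in CSrab, and in IsoCS the nearest values were 3.55 CPM at 29 °C and 3.64 CPM at 18 °C. In heads the same gene was at 1014, 644 and 1599 CPM in CSrab at 29 °C and 236, 404 and 89.4 CPM at 18 °C, without overlap. In IsoCS heads it was at 708, 736 and 243 CPM at 29 °C and 132, 569 and 184 CPM at 18 °C.

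LOC101900960 and LOC101901138, which share a scaffold, and LOC101898872 had the same profile and were all among the first 10 by the smaller ratio. LOC101900960 was at 0.0690, 72.9 and 9.18 CPM in CSrab testes at 29 °C and 3.39, 4.22 and 5.81 CPM at 18 °C, against 4.50, 0.480 and 1.24 CPM in IsoCS at 29 °C and 5.03, 70.4 and 8.62 CPM at 18 °C. LOC101901138 reached 49.9 CPM in replicate 2 of CSrab at 29 °C and 61.7 CPM in replicate 2 of IsoCS at 18 °C, and was at most 5.30 CPM in every other testis library. LOC101898872 reached 74.0 and 51.8 CPM in those 2 libraries and at most 14.7 CPM elsewhere. All 4 genes were much higher in heads, where LOC101900960 averaged 1131 ± 341 CPM in CSrab at 29 °C, 422 ± 232 CPM in CSrab at 18 °C, 1262 ± 593 CPM in IsoCS at 29 °C and 618 ± 415 CPM in IsoCS at 18 °C (SD, n = 3 each). The summed level of the 337 head-high genes in those 2 testis libraries was 743 and 1617 CPM, the middle value of each group, and its part in the peaks was not tested.

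**Figure D2:**
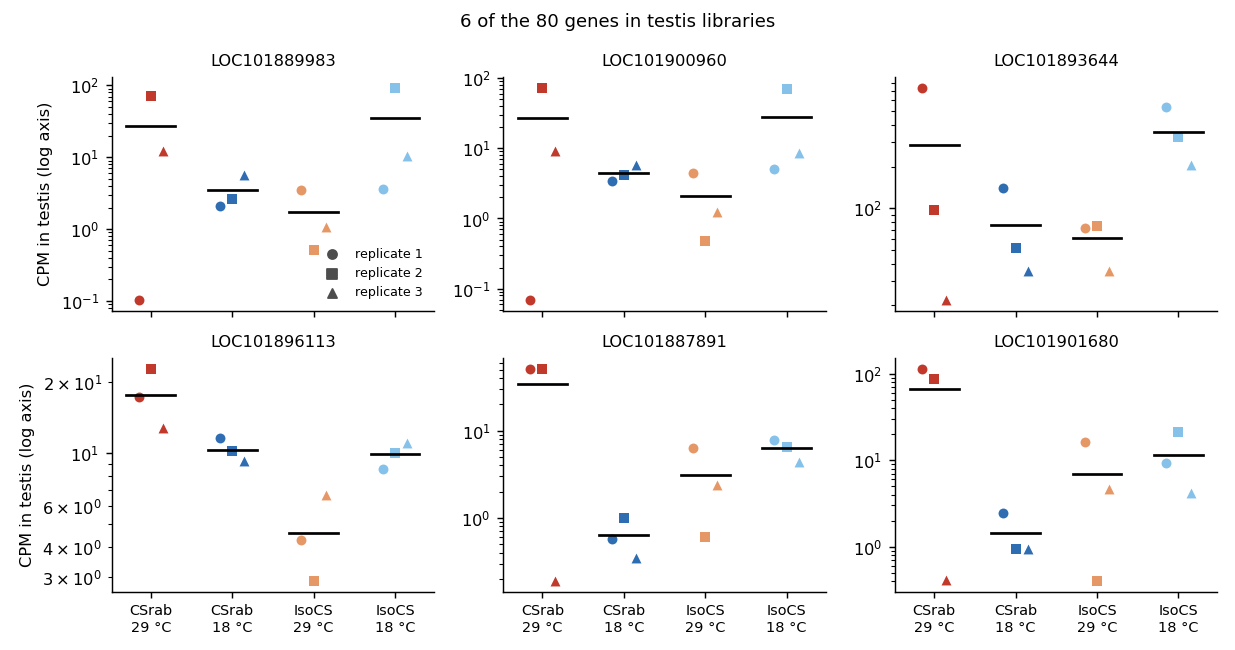
CPM (log axis) of 6 of the 80 genes in the 12 testis libraries, grouped by strain and temperature, with 1 point per library (shape by replicate) and black bars at group means. LOC101889983 and LOC101900960 are high in replicate 2 of warm-raised CSrab and of cool-raised IsoCS, LOC101887891 and LOC101901680 in replicates 1 and 2 of warm-raised CSrab, and LOC101896113 separates the temperatures in both strains.

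Most other high-ranked members followed the replicate 1 pattern. LOC101893644 was at 740, 97.2 and 21.9 CPM in CSrab testes at 29 °C and 141, 52.1 and 35.5 CPM at 18 °C, against 72.5, 74.9 and 35.1 CPM in IsoCS at 29 °C and 538, 326 and 205 CPM at 18 °C. The IsoCS temperatures did not overlap, while the CSrab values at 29 °C spanned those at 18 °C. LOC101887971 was at 199, 68.8 and 2.46 CPM in CSrab at 29 °C and 9.58, 5.97 and 6.36 CPM at 18 °C. In IsoCS it was at 69.8, 13.9 and 21.5 CPM at 29 °C and 239, 62.1 and 40.7 CPM at 18 °C. Its replicate 3 of warm-raised CSrab was below all 3 cool-raised libraries of the strain. LOC101898763, LOC101897571, LOC101899131 and LOC101899513 complete the first 10, and in each of them replicate 1 of CSrab at 29 °C was the highest of its group and replicate 3 the lowest.

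The most abundant members in testes behaved alike. LOC101899737 was at 5667, 982 and 131 CPM in CSrab testes at 29 °C and 1186, 550 and 768 CPM at 18 °C, against 2936, 1089 and 519 CPM in IsoCS at 29 °C and 4404, 2712 and 1831 CPM at 18 °C. LOC101900934 averaged 535 ± 464 CPM in warm-raised CSrab and 203 ± 86.4 CPM in cool-raised CSrab, against 606 ± 181 CPM in IsoCS at 29 °C and 1517 ± 600 CPM at 18 °C (SD, n = 3 each). LOC101892983 averaged 174 ± 182 CPM in warm-raised CSrab and 88.1 ± 46.3 CPM in cool-raised CSrab, against 100 ± 39.7 CPM in IsoCS at 29 °C and 570 ± 296 CPM at 18 °C (SD, n = 3 each). In CSrab the SD at 29 °C was above the mean for LOC101899737 and LOC101892983 and somewhat below it for LOC101900934. The CSrab temperatures overlapped in each of these genes, so their CSrab difference was within the spread of replicates.

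Another profile was that of LOC101887891, LOC101887216 and LOC101901680, the trio on one scaffold of element B. LOC101887891 was at 50.8, 50.1 and 0.189 CPM in CSrab testes at 29 °C and 0.575, 1.01 and 0.351 CPM at 18 °C, against 6.35, 0.600 and 2.38 CPM in IsoCS at 29 °C and 7.76, 6.55 and 4.42 CPM at 18 °C. LOC101901680 was at 114, 87.3 and 0.410 CPM in CSrab at 29 °C and 2.43, 0.939 and 0.952 CPM at 18 °C. LOC101887216 was at 34.1, 27.7 and 0.0946 CPM in CSrab at 29 °C and 1.53, 0.201 and 0.200 CPM at 18 °C. In all 3 genes replicates 1 and 2 of warm-raised CSrab testes stood far above every cool-raised library of the strain, and replicate 3 lay below them all.

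The head libraries showed the same replicates low for this trio. LOC101887891 was at 91.7, 354 and 0.252 CPM in CSrab heads at 29 °C, from 2258, 9550 and 9 counts, and at 1.32, 1.06 and 0.149 CPM at 18 °C. In IsoCS heads it was at 3.30, 0.173 and 37.2 CPM at 29 °C and 1.08, 3.22 and 1.27 CPM at 18 °C. Replicate 3 of warm-raised CSrab and replicate 2 of warm-raised IsoCS were thus the lowest of their group in both tissues. LOC101901680 was at 249, 521 and 0.252 CPM in CSrab heads at 29 °C and 14.7, 0.139 and 117 CPM in IsoCS heads at 29 °C, and LOC101887216 at 86.5, 194 and 0.196 CPM and 8.98, 0.0693 and 53.4 CPM. LOC101901050, on element D, had the same shape, with 203, 77.9 and 0.441 CPM in CSrab testes and 46.3, 89.2 and 0.336 CPM in CSrab heads at 29 °C. LOC101900993 and LOC101895802, on element E, were similar, with 24.9, 16.2 and 2.65 CPM and 36.6, 14.9 and 1.20 CPM in CSrab testes at 29 °C. In CSrab heads at 29 °C they were at 13.8, 18.3 and 0.644 CPM and 2.36, 3.19 and 0.0840 CPM. These genes outside the trio were singled out here after their values were seen.

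The members as a group also tended to vary together between tissues by replicate number. For each of the 4 kinds of flies and each number, the members' log2 deviations from the group mean in testes were set against those in heads. Over the 80 members, Pearson's r was positive in 12 of 12 same-numbered pairs, between 0.13 and 0.70, and Spearman's rho was between 0.016 and 0.51. The highest values were 0.70 for replicate 2 of IsoCS at 29 °C and 0.63 for replicate 3 of CSrab at 29 °C. Between unequal numbers of the same kind of flies r was at least -0.70 and at most 0.42 (CSrab at 29 °C), above some of the same-numbered values. Over the 14334 genes tested jointly, r was between -0.084 and 0.19. Genes are not independent replicates, and the labels do not say whether equal numbers share flies. Head libraries were not used by the rule, but for this reason the head values below are not taken as independent of the testis libraries that chose the members.

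The temperature effects in testes, as fitted by edgeR, are given as a description, since they are the contrasts that chose the members. In CSrab testes 4 members had an adjusted p under 0.05 and were higher at 29 °C, where 3.23% of the 13271 genes tested were. They were LOC101896113, LOC101887343, LOC101887891 and LOC101893017. In IsoCS testes 1 member, LOC101896113, was lower at 29 °C at this threshold, where 3.81% of all genes were. For the interaction (the CSrab effect of warmth less the IsoCS effect) the same single member passed, where 0.098% of all genes were positive and passed. With replicate number as a block within strain these counts were 8, 2 and 0, where 5.61%, 8.19% and 0.0226% of all genes were called in either direction. Leaving out single libraries gave between 0 and 15 members in CSrab, the most without replicate 3 of CSrab at 29 °C (5.82% of all genes). In IsoCS it gave between 0 and 4, the most without the same library (10.8% of all genes). For the interaction it gave between 0 and 2, the most without replicate 3 of IsoCS at 29 °C (0.911% of all genes). In the authors' deposited table, 8 members had an adjusted interaction p under 0.05 in testes, where 1.84% of the genes with a value did.

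LOC101896113, on element E, was the member whose groups were the most separate. Its testis level was 17.2, 22.7 and 12.7 CPM in CSrab at 29 °C and 11.6, 10.3 and 9.27 CPM at 18 °C, against 4.30, 2.88 and 6.69 CPM in IsoCS at 29 °C and 8.58, 9.996 and 11.1 CPM at 18 °C. The temperatures did not overlap in either strain. The nearest CSrab values were 12.7 CPM at 29 °C and 11.6 CPM at 18 °C. The fitted interaction was 1.82 ± 0.30 (log2, SE), and its adjusted p in the authors' deposited table was 5.57e-06. In heads the temperatures overlapped in CSrab, with 9.10, 4.89 and 9.02 CPM at 29 °C and 15.2, 10.5 and 8.05 CPM at 18 °C.

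The other members below 0.05 in the authors' deposited table were LOC101887891, LOC101893017, LOC101892178, LOC101893644, LOC101901027, LOC101887577 and LOC101889169. LOC101893017 was at 54.7, 61.6 and 36.2 CPM in CSrab testes at 29 °C and 39.3, 38.5 and 28.7 CPM at 18 °C, against 34.1, 24.2 and 55.6 CPM in IsoCS at 29 °C and 57.0, 55.8 and 67.9 CPM at 18 °C. LOC101901027 was at 99.3, 65.1 and 66.7 CPM in CSrab at 29 °C and 59.8, 51.6 and 48.8 CPM at 18 °C, against 74.7, 43.3 and 55.1 CPM in IsoCS at 29 °C and 139, 129 and 72.1 CPM at 18 °C. LOC101887577 was at 77.2, 44.7 and 31.1 CPM in CSrab at 29 °C and 39.3, 22.5 and 13.03 CPM at 18 °C, against 52.4, 33.7 and 22.1 CPM in IsoCS at 29 °C and 108, 114 and 53.2 CPM at 18 °C. In CSrab only LOC101901027 of these 3 kept its temperatures apart, and in IsoCS LOC101893017 and LOC101887577 did.

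The strain difference in testes averaged over both temperatures is a contrast that the rule did not use, although it rests on the same libraries. CSrab was below IsoCS for 65 members and above for 15, with a median log2 difference of -0.77, against 0.01 over the eligible genes. Of the members, 10 were lower in CSrab at an adjusted p under 0.05 (edgeR (quasi-likelihood F, Benjamini-Hochberg adjusted)), where 10.8% of all genes tested were, and 1 was higher, where 12.6% were. With all libraries, the share of 10 in 80 is near the background. In either direction the count was 11, where 23.4% of all genes were called. It was 26 with a replicate block, where 22.1% of all genes were called, and 20 with DESeq2, where 26.5% were. That block joined equal numbers of both strains. Between strains, however, testis libraries numbered 2 deviated in opposite ways, with r between -0.41 and -0.12. Without replicate 1 of CSrab at 29 °C the count was 35, where 20.9% of all genes were called, and the median strain difference was -1.20. The count was 17 without replicate 3 of IsoCS at 29 °C, where 33.5% of all genes were called. It was 5 without replicate 2 of CSrab at either temperature or replicate 1 of IsoCS at 18 °C, 6 without replicate 1 of IsoCS at 29 °C, and 7 without replicate 1 or replicate 3 of CSrab at 18 °C. Over the 11 fits without 1 of the libraries other than replicate 1 of CSrab at 29 °C, between 16.7% and 33.5% of all genes were called. In each of the 11 the members' share of calls in either direction was below that of all genes. Such totals join both directions, while 16 of the 17 calls without replicate 3 of IsoCS at 29 °C were lower in CSrab. How far this total of calls stood from that of all genes therefore depended on that replicate 1 library and on the replicate block. Of the 35 calls without that library 34 were lower in CSrab, and of the 26 with the block 25 were. The sign held in every setting, with CSrab below IsoCS for between 61 and 71 members. The members' median was between -1.20 and -0.54, beside -0.02 to 0.01 for all genes. Shares of all genes by direction were taken only with all libraries.

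LOC105262429, on element D, differed most. It was at 4.90, 15.2 and 6.31 CPM in CSrab testes at 29 °C and 4.92, 3.49 and 8.47 CPM at 18 °C, against 19.2, 12.004 and 51.7 CPM in IsoCS at 29 °C and 91.3, 62.3 and 87.2 CPM at 18 °C. Only replicate 2 of IsoCS at 29 °C, at 12.004 CPM, lay within the CSrab range. The log2 strain difference was -2.67 ± 0.38 (SE), with an adjusted p of 0.000699 by the edgeR quasi-likelihood F statistic, and it stayed past the threshold under all 17 alternatives. LOC101889169 averaged 5.36 ± 6.14 CPM in warm-raised CSrab and 2.14 ± 0.297 CPM in cool-raised CSrab, against 7.17 ± 4.66 CPM in IsoCS at 29 °C and 40.1 ± 22.6 CPM at 18 °C (SD, n = 3 each), a log2 difference of -2.37 ± 0.59 with an adjusted p of 0.0150 in the same edgeR test. LOC101899131 averaged 12.5 ± 13.3 CPM in warm-raised CSrab and 3.998 ± 0.387 CPM in cool-raised CSrab, against 17.6 ± 12.3 CPM in IsoCS at 29 °C and 72.0 ± 53.1 CPM at 18 °C (SD, n = 3 each). Its log2 difference was -2.38 ± 0.65 with an adjusted p of 0.0238 in edgeR. The call was lost without any single CSrab library from 18 °C, without replicate 2 of CSrab at 29 °C, and without replicate 1 of IsoCS at either temperature, with differences between -2.39 and -2.001. The 1 member that was higher in CSrab was LOC101896113, by 1.03 ± 0.15, with an adjusted p of 0.000848 in edgeR.

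Relative to heads, the members were low in testes. By means over 12 libraries each, 74 of the 80 (92.5%) were higher in heads, beside 45.5% of the eligible genes. In the joint fit of all 24 libraries, 67 members were lower in testes at an adjusted p under 0.05, where 41.3% of the 14334 genes tested were, and 4 were higher, where 45.9% were. The median log2 ratio of testis to head was -1.92 for the members, 0.31 for the eligible genes and 0.12 for all genes tested. The rule asked for a minimum level in testes only, and the eligible genes met the same minimum. In either direction 71 members were called with all libraries, where 12501 of the 14334 genes tested were. Leaving out any single library gave between 70 and 73. Such totals are near the background, and the members differed from it in direction.

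**Figure D3:**
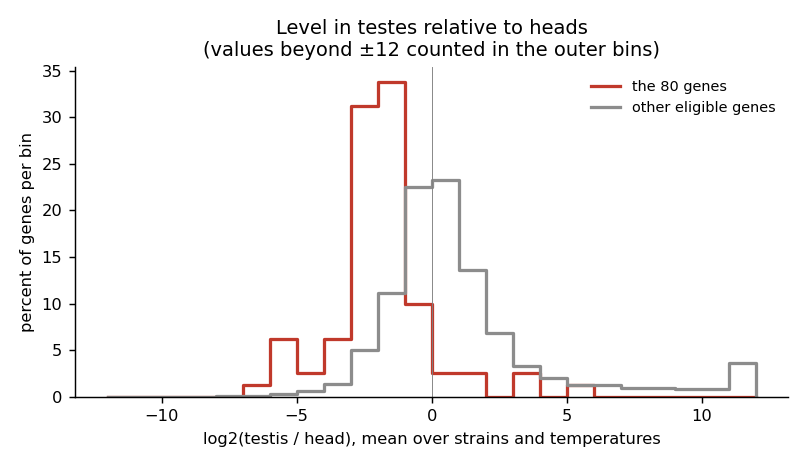
Distribution of the log2 ratio of testis to head level (horizontal axis) for the 80 members and for the other eligible genes, as the percent of each set per bin (vertical axis). The members are shifted to the left, with a median of -1.92, against 0.31 for the eligible genes.

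The lowest ratio among those named was that of LOC101900960, at -6.28 ± 0.74 (log2, SE), with an adjusted p of 1.557e-07 by edgeR (quasi-likelihood F, Benjamini-Hochberg adjusted). LOC101894041 averaged 8.23 ± 7.02 CPM in CSrab testes at 29 °C and 379 ± 138 CPM in CSrab heads at 29 °C, and its ratio over all groups was -5.74 ± 0.61. LOC101900142 averaged 23.1 ± 21.9 CPM in CSrab testes at 29 °C and 346 ± 218 CPM in the matching heads, with a ratio of -5.67 ± 0.61 (SD over n = 3 for the means, SE for the ratio). Heads of every group were thus well above testes for these 3 genes. Among the few members higher in testes, LOC105262429 had a ratio of 5.25 ± 0.27, and its head level was at most 0.956 CPM in any library. LOC101895802 and LOC101890313 had ratios of 3.57 ± 0.70 and 3.13 ± 0.25.

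In CSrab heads, most members had a higher mean at 29 °C, and whether any was called depended on the tool. The temperature effect was positive for 64 and negative for 16, with a median of 0.42 (log2), against 0.00 for the eligible genes, of which 50.3% were positive. No member was called by the edgeR quasi-likelihood F statistic, where 0.283% of the 12347 genes tested were, and 18 had an unadjusted p under 0.05, where 16.3% of all genes did. DESeq2 called 10, all higher at 29 °C, where it called 5.69% of the genes it tested. Without replicate 3 of CSrab at 29 °C edgeR called 1, where it called 210 of 12517 genes. The smallest adjusted p in edgeR was 0.0857, for LOC101896552. That gene was at 610, 1063 and 1192 CPM in CSrab heads at 29 °C and 420, 372 and 464 CPM at 18 °C, without overlap, a log2 effect of 1.28 ± 0.30 (SE).

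In IsoCS heads the sign of the members' temperature effect depended on 1 library. The temperature effect was negative for 52 members and positive for 28, with a median of -0.20, against -0.02 for the eligible genes, of which 52.1% were negative. No member was called by edgeR, where 0.697% of all genes were, and 5 had an unadjusted p under 0.05, where 18.7% of all genes did. DESeq2 called 1, where it called 5.65% of the genes it tested. With a replicate block within strain edgeR called 3, where it called 2.47% of all genes. Neither share of the members is far above its background. LOC101891581 was at 32.3, 43.0 and 35.8 CPM in IsoCS heads at 29 °C and 47.3, 53.8 and 57.0 CPM at 18 °C, without overlap. Its log2 effect of -0.66 ± 0.19 had an adjusted p of 0.130 by edgeR (quasi-likelihood F, Benjamini-Hochberg adjusted). Without replicate 2 of the 18 °C group, 38 members were negative and the median was 0.04. Without any other single library the median was between -0.38 and -0.12. The ends were the fits without replicate 3 and without replicate 1 of the 29 °C group, in that order. In the former edgeR called 1 member, where it called 116 of 12562 genes. Attacin, an antimicrobial peptide gene of the immune response, was at 1012, 0.832 and 1.41 CPM in replicates 1, 2 and 3 of IsoCS heads at 29 °C and 1.46, 159 and 5.86 CPM at 18 °C. One library at each temperature was thus high, and the part of either in the result was not tested.

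The interaction in heads had the sign of the testis pattern in nearly all members. It was positive for 77 and negative for 3, which were LOC101890313 at -0.03, LOC101898905 at -0.06 and LOC101887561 at -0.04 (log2). The median was 0.68, against 0.03 for the eligible genes, of which 54.3% were positive, and it was 0.38 without replicate 2 of IsoCS at 18 °C. No member was called by edgeR, where 0.0243% of all genes were. DESeq2 called 0, where it called 0.382%. In edgeR 7 members had an unadjusted p under 0.05, where 4.97% of all genes did. Without 1 head library the count of positive members was between 68, without replicate 2 of IsoCS at 18 °C, and 79, without replicate 1 of the same group. The smallest adjusted interaction p in the authors' deposited head table was 0.0831 among the members. The interactions of both tissues thus had the same sign in 77 members, and the libraries of the tissues varied together by number, as given above.

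**Figure D4:**
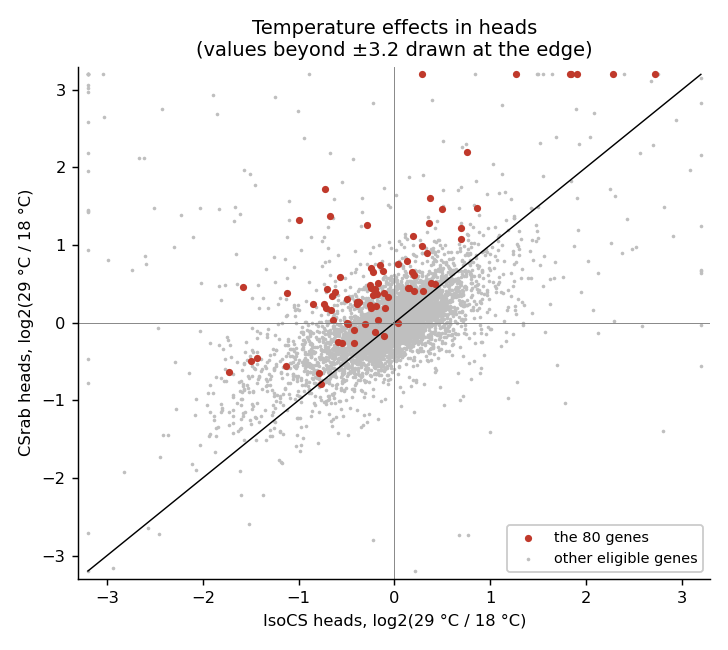
Temperature effect in heads (log2 of 29 °C over 18 °C) in CSrab (vertical axis) against IsoCS (horizontal axis), with the 80 members in red over the other eligible genes in grey and values beyond 3.2 drawn at the edge. Members lie mainly above the diagonal, where the CSrab effect exceeds the IsoCS effect.

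LOC101889524, on element E, had the smallest interaction p in heads. It was at 3.82, 12.8 and 9.41 CPM in CSrab heads at 29 °C and 2.86, 4.15 and 4.12 CPM at 18 °C, against 2.64, 2.05 and 3.81 CPM in IsoCS at 29 °C and 5.52, 3.48 and 6.44 CPM at 18 °C. The interaction was 2.32 ± 0.62 (log2, SE), with an adjusted p of 0.729 by edgeR (quasi-likelihood F, Benjamini-Hochberg adjusted). In testes its IsoCS values at 29 °C were 1.55, 0.600 and 17.1 CPM, so a single library set that mean. LOC101893644 was at 128, 121 and 438 CPM in IsoCS heads at 29 °C and 677, 532 and 666 CPM at 18 °C, without overlap, and its head interaction was 2.04 ± 0.76. The trio on element B had the largest estimates, with 4.84 ± 2.75 for LOC101887891, 4.63 ± 2.84 for LOC101901680 and 4.41 ± 2.65 for LOC101887216, and SEs to match.

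**Figure D5:**
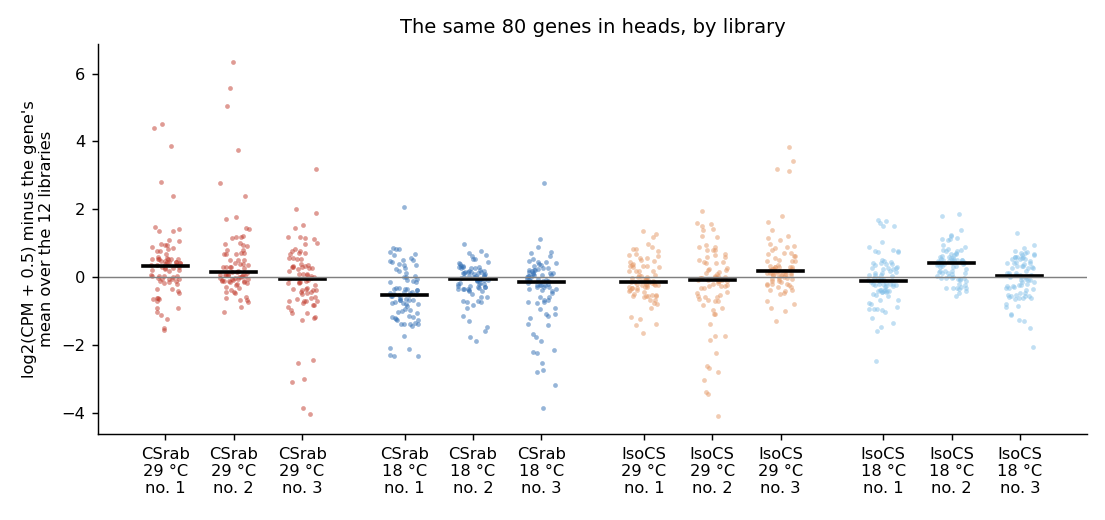
Level of the same 80 genes in each head library, as log2 of CPM plus 0.5 relative to the gene's mean over the 12 head libraries, grouped by strain and temperature. Medians (black) differ less between libraries than in testes, and the lowest group is CSrab at 18 °C.

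The strains differed in heads in opposite directions at the 2 temperatures. At 29 °C CSrab was above IsoCS for 64 members, with a median of 0.39 (log2), and at 18 °C it was below for 69, with a median of -0.37, while 51.3% of the eligible genes were positive at 29 °C and 53.1% negative at 18 °C. Without replicate 2 of IsoCS at 18 °C the difference at 18 °C was negative for 51 members, with a median of -0.19. At 29 °C 2 members were higher in CSrab by the edgeR quasi-likelihood F statistic, where 2.7% of all genes were, and at 18 °C 1 member was lower, where 1.37% of all genes were. These shares are near the background. LOC101887985 was at 376, 319 and 327 CPM in CSrab heads at 29 °C and 180, 243 and 249 CPM in IsoCS heads at 29 °C, a log2 difference of 0.79 ± 0.19 with an adjusted p of 0.0441 in edgeR. LOC101889524, with the values above, differed by 1.81 ± 0.44, with an adjusted p of 0.0485 in the same edgeR test. LOC101887203 was at 21.3, 30.1 and 32.6 CPM in CSrab heads at 18 °C and 45.4, 66.4 and 47.4 CPM in IsoCS heads at 18 °C, a log2 difference of -0.97 ± 0.21 with an adjusted p of 0.0327 in edgeR. The strains did not overlap in any of these 3 genes, but each call rested on single libraries. LOC101887985 lost it without any 1 of its 6 libraries, with differences between 0.67 and 0.90. LOC101889524 lost it without any 1 but replicate 1 of CSrab, with differences between 1.38 and 2.10, and LOC101887203 without any 1 but replicate 1 of IsoCS, with differences between -1.05 and -0.74. For most members, the strain difference in heads at either temperature had the direction seen in their testis group means. Those means chose the members, and the libraries of the tissues varied together by number, so this is a description. The difference between the 2 strain effects in heads is also the head interaction given above, not a separate result.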

How the data were processed

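Per the labels, TRIzol and column-purified RNA went into stranded mRNA libraries. The submitters' processing notes name HISAT2, SAMtools, HTSeq and DESeq2. The genome build is not given in the sources used here. The authors deposited, per tissue, a table of raw counts per gene in 12 libraries with a chromosome element and, per the file headers, an adjusted p-value for the interaction of strain and temperature.

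The 80 genes and all lists were chosen with earlier results of these data known. The rule used CPM on column totals. Tests were edgeR's quasi-likelihood test (R 4.3.3, edgeR 4.0.16, limma 3.58.1) with 1 coefficient per group, TMM scaling and filterByExpr (minimum count 10, minimum total 15), with Benjamini-Hochberg adjustment over all genes tested, and calls at 0.05. The script was checked on simulated data. Labels call the replicates biological. P-values measure the spread between these samples.

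Alternatives were DESeq2 1.42.0, DESeq2 size factors, other filters, replicate blocks, and leaving out libraries. Same-numbered libraries deviated together (every r over 0.1) between temperatures in CSrab heads, CSrab testes and IsoCS testes, with r between 0.16 and 0.55, and not in IsoCS heads or between strains.

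Named were the first 10 members, those at the limit, and those with a testis interaction call or deposited adjusted p under 0.05. Also named were the 3 largest called changes in each direction per comparison and the 3 highest in testes. The genes on shared scaffolds, LOC101901050, LOC101900993, LOC101891581, LOC101887343, LOC101898905 and LOC101887561 were named after their values were seen. No sequence table or product names were used here, so motifs, gene families and cell type markers by name were not analysed here.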

Additional observations from a re-analysis of the deposited data

Results flagged for a closer look

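In edgeR's fit with all libraries, LOC101896113 was the 1 member whose temperature effect in testes differed between the strains by a test of the difference itself, and 8 members had an interaction p under 0.05 in the authors' deposited table. The interaction was 1.82 ± 0.30 (log2, SE), with an adjusted p of 0.0477 by edgeR (quasi-likelihood F, Benjamini-Hochberg adjusted over 13271 genes), and the temperatures did not overlap in either strain. This contrast is among the values that chose the members, so it is given as a description. With replicate number as a block within strain, no member passed in this test. Leaving out each of the 12 testis libraries in turn, LOC101896113 passed in 1 fit, without replicate 3 of IsoCS at 29 °C, and lost the call in 11, and in 10 of the 12 no member passed.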

How the results depend on the processing

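Of 147 alternative counts over 9 count results, 115 were within 1.5 times the reported count. DESeq2 called 10 members for temperature in CSrab heads, 1 in IsoCS heads and 20 for strain in testes, with the shares of all genes given above. For strain in heads at 18 °C it called 3 members, where it called 900 of 13077 genes. At 29 °C it called 4, where it called 1378 of 13377 genes. A replicate block gave 1 for strain in heads at 29 °C, where 491 of 12347 genes were called, and 26 in testes. Within strain it gave 3 for temperature in IsoCS heads and, in testes, 8, 2 and 0 for CSrab, IsoCS and the interaction. It changed no other count by over 1.5 times. No filter on low counts gave 0 for strain in heads at 29 °C. Without 1 library, the counts were 0 to 1 for temperature in CSrab heads, 0 to 1 in IsoCS heads, 0 to 1 for strain in heads at 18 °C and 0 to 1 at 29 °C, 5 to 35 for strain in testes, and 42 to 76 for membership. Without all 4 testis libraries numbered 1, the rule kept 37 of the 80. The causes were not tested. Of 275 alternatives for 13 gene results, 25 lost the call and 0 reversed. LOC101887203 lost it in 5 of 11, LOC101887985 and LOC101889524 in 7 of 11 each, and LOC101899131 in 6 of 17. The 3 replicates per group limit what can be called.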
